A study of Mus musculus with 4 samples.

Results

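The expression of 35 endothelial and vessel marker genes was examined in cultured mammary fibroblasts that differed in the transcription factor gene *Ets2* and in the *ErbB2* oncogene. The genes were chosen by name as endothelial markers, with earlier results of these data known, so shares against all genes are descriptions. All 35 had at least 1 probe set that the platform annotation assigns to a single gene symbol. They form 35 of the 18194 singly named genes on the arrays, and each gene is represented by its brightest probe set, judged by the mean of the 4 values. The arrays were Affymetrix mouse genome arrays, with 1 array for each of 4 genotypes, so there was no replicate and no test could be made. The *ErbB2* *Ets2* null fibroblasts were of genotype *ErbB2;Fsp-cre;Ets2db/loxP* and the *ErbB2* fibroblasts with *Ets2* of genotype *ErbB2;Ets2db/loxP*. The normal *Ets2* null fibroblasts were *FspCre;Ets2db/loxP* and the normal fibroblasts with *Ets2* were *Ets2db/loxP*. All mice were 16 weeks old, female and of the FVB/N strain. All 4 groups carried 1 conventional *Ets2* knockout allele (*db*) beside the conditional allele, so that the fibroblasts with *Ets2* had 1 functional copy. The Cre recombinase, driven by the Fibroblast Specific Protein 1 promoter, was present in both null groups and in neither of the others, so Cre expression and loss of *Ets2* cannot be told apart. The oncogene was driven in the mammary epithelium and not in the fibroblasts. The number of mice behind each array was not stated.

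Blood vessels are lined by endothelial cells, which respond to vascular endothelial growth factor (VEGF) through receptor tyrosine kinases, hold together through junction proteins such as VE-cadherin and CD31, and release factors that act on clotting and on vessel tone. Much of this program is under the control of transcription factors of the ETS family, to which both Ets2 and the endothelial factor Erg belong, and of the SOX family. Fibroblasts are not expected to carry most of these transcripts at a high level. A few members, among them *Eng*, *Cd34*, *Pecam1*, *Cd93* and *Vwf*, are also known from fibroblasts, blood cells or platelets, and 12 of the 35 were listed as such.

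ETS factors bind a core of GGAA, and the promoter windows of the members were therefore searched on both strands for the ETS letters CNGGAAG, in which N is any base. Windows from RefSeq (build GRCm38.p6), which run from before each gene's start to just after it and span 300 bases, were found for 19 of the 35 members. Of these, 14 held the ETS letters in at least 1 window, or 73.7%, against 34.7% of the 27025 genes with a window and 40.4% of the 14453 of those that are on the array. The SOX letters ACAANG were in 9 of the 19 (47.4%, against 44.9% of all genes and 40.4% of array genes) and the GATA letters AGATAA in 3 (15.8%, against 12.7% and 9.53%). The 250 bases before the start are shown for the 4 members with a single window that differed more than 2-fold in an *Ets2* comparison and held the ETS letters, in capitals here. *Adgrf5*, which also met both, has 2 windows, of which 1 held the letters, and is not shown. They are *Robo4* (chr9:37401722-37401971), *Emcn* (chr3:137340828-137341077), *Apln* (chrX:48034854-48035103) and *Clec14a* (chr12:58269259-58269508).
Robo4: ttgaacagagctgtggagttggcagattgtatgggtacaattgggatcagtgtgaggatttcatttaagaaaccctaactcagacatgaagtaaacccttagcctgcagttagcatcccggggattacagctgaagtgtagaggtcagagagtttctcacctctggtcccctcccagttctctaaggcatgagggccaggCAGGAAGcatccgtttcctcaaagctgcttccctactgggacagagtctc
Emcn: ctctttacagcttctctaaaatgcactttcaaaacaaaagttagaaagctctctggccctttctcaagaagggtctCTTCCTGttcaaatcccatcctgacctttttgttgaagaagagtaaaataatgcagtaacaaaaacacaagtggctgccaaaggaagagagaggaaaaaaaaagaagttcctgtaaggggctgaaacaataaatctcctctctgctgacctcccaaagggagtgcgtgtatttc
Apln: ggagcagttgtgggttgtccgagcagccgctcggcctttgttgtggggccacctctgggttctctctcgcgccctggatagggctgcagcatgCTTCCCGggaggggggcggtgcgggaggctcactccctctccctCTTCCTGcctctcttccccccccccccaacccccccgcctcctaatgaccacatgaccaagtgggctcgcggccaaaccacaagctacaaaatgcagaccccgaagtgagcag
Clec14a: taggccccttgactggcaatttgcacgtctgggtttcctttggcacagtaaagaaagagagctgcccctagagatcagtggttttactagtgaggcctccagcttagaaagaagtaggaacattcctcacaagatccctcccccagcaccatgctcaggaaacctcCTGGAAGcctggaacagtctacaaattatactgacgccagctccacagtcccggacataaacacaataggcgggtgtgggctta
The *Robo4* and *Emcn* windows are on the plus strand, and those of *Apln* and *Clec14a* on the minus strand, each printed 5′ to 3′ toward the gene. The match began 50 bases before the start in *Robo4*, 174 in *Emcn*, 84 in *Clec14a*, and 157 and 113 in *Apln*. A match is a description of these letters and not a binding site. The windows of *Cldn5* and *Esm1*, which also differed more than 2-fold, held no ETS letters in these 250 bases.

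The values are on the log2 scale as made by RMA, and the median over all probe sets lay between 5.51 and 5.54 on the 4 arrays. A log2 value of 6 was taken as the level below which a gene was not read as above background, and folds are given only where both arrays were at or above it. The brightest *Ets2* probe set was at 8.31 in *ErbB2* *Ets2* null fibroblasts, against 8.34 in *ErbB2* fibroblasts with *Ets2*, and at 8.35 without *Ets2*, against 8.14 with it, in normal fibroblasts. It was thus not lower on the normal null array. Its position relative to the deleted part of the gene was not stated, so it does not check the genotype labels. The 18 fibroblast markers had a median of 11.55 and 12.08 in *ErbB2* *Ets2* null fibroblasts and *ErbB2* fibroblasts with *Ets2*, and of 10.90 and 11.45 in normal *Ets2* null fibroblasts and normal fibroblasts with *Ets2*. The cultures thus held the labelled cell type on all 4 arrays. Of the 35 endothelial genes, log2 6 or more was measured for 14 in *ErbB2* *Ets2* null fibroblasts, 18 in *ErbB2* fibroblasts with *Ets2*, 14 in normal *Ets2* null fibroblasts and 22 in normal fibroblasts with *Ets2*. These are 40.0%, 51.4%, 40.0% and 62.9% of the members, against 57.2%, 56.8%, 57.0% and 56.8% of all genes on the same arrays. On all 4 arrays 11 members reached that level, and 12 reached it on none.

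The 35 endothelial genes, chosen with earlier results of these data known, were mostly lower in *Ets2* null fibroblasts, with and without the oncogene. In normal fibroblasts 31 of 35 were below 0 in the difference of *Ets2* null minus *Ets2* present, against 50.5% of all genes, and the median difference was -0.63 on the log2 scale, against -0.003 over all genes. In *ErbB2* fibroblasts 28 of 35 were below 0, against 44.2% of all genes, with a median of -0.36 against 0.039. The spread of the differences between genes, as a robust SD over all 18194, was 0.215 in normal and 0.271 in *ErbB2* fibroblasts, which is not a spread between replicate arrays. The summed linear signal of the 35 genes was 2680 in *ErbB2* *Ets2* null fibroblasts, against 3510 in *ErbB2* fibroblasts with *Ets2*, and in the normal pair 2820 without *Ets2*, against 4510 with it. As these are bulk RNA values, fewer cells of a type and less RNA per cell cannot be told apart.

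**Figure D1:**
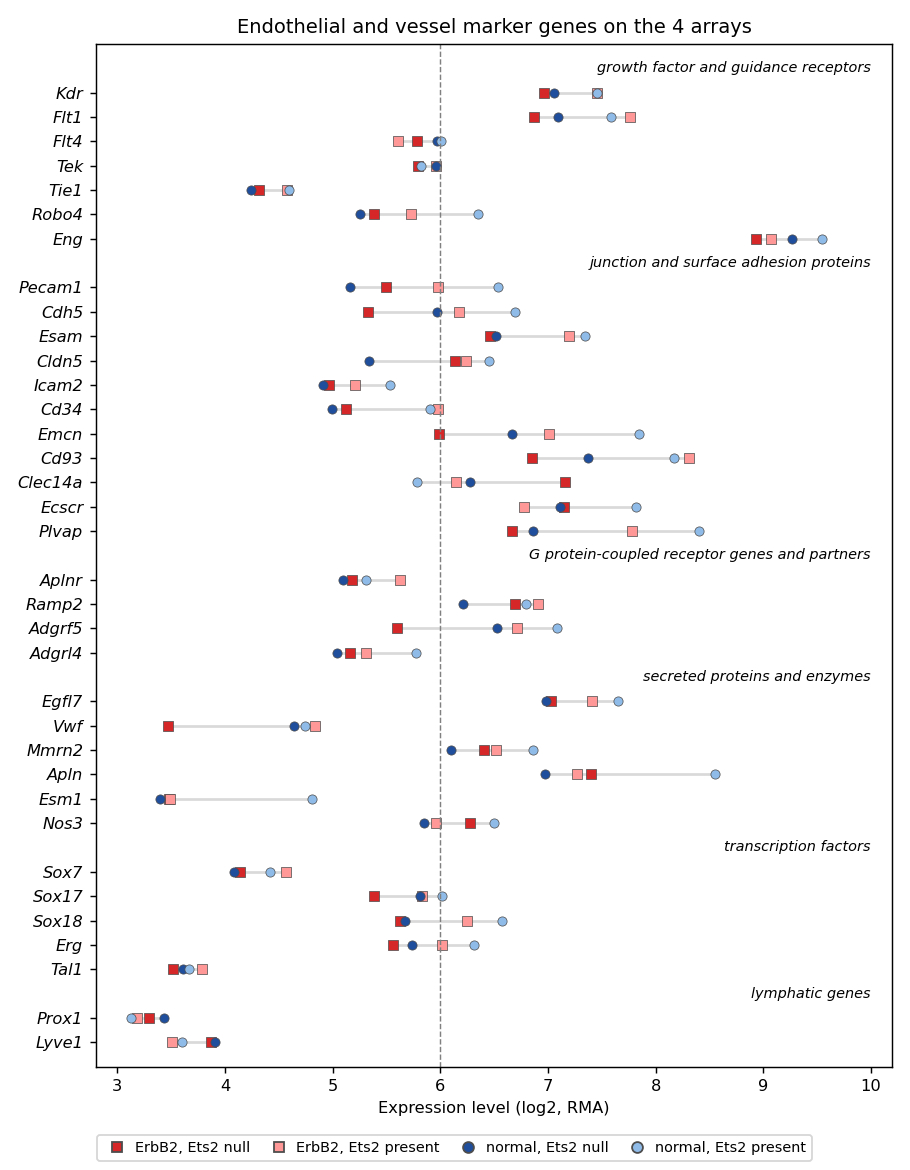
Log2 expression level (horizontal axis) of each of the 35 endothelial and vessel genes (rows, grouped by role) on the 4 arrays, with squares for ErbB2 and circles for normal fibroblasts, dark for Ets2 null and light for Ets2 present, a gray bar for the range and a dashed line at log2 6. The light symbols lie to the right of the dark ones for most genes, and Clec14a, Prox1 and Lyve1 run the other way.

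The comparisons of *Ets2* null with *Ets2* present in normal and in *ErbB2* fibroblasts share no array, so that the members can be set side by side. Both differences were below 0 for 27 of 35 members (77.1%, against 23.8% of all genes), and above 0 for 3 (8.57%, against 29.0%). In 26 of 35 members both *Ets2* null arrays lay below both *Ets2* present arrays (74.3%, against 17.2% of all genes). The lowest value was in an *Ets2* null array for 30 members (85.7%, against 48.6%), in 15 of them in *ErbB2* (42.9%, against 23.7%) and in 15 in normal fibroblasts (42.9%, against 24.9%). Across the members, which are not independent of each other, the 2 differences had a Pearson r of 0.34 and a Spearman rho of 0.26, against -0.0565 and 0.0582 over all 18194 genes, given here as a description.

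By the rule of more than 2-fold, 7 members were lower and none was higher in normal *Ets2* null fibroblasts. The same rule was met by 0.357% of all genes in the lower direction and by 0.621% in the higher direction. In *ErbB2* *Ets2* null fibroblasts 5 members were more than 2-fold lower, against 1.74% of all genes, and 1 was more than 2-fold higher, against 0.341%. The members lower in normal fibroblasts were *Plvap*, *Apln*, *Esm1*, *Pecam1*, *Emcn*, *Cldn5* and *Robo4*. In *ErbB2* fibroblasts they were *Cd93*, *Vwf*, *Plvap*, *Adgrf5* and *Emcn*. Of the members lower in normal fibroblasts, only *Plvap*, *Apln* and *Emcn* had both arrays at or above log2 6. Of those lower in *ErbB2* fibroblasts, only *Cd93* and *Plvap* did. *Plvap* and *Emcn* met the rule in both (5.71% of the members, against 0.115% of all genes), and no member reached 4-fold in any comparison. The *Emcn* difference in *ErbB2* fibroblasts, -1.02, lies just past 2-fold, with the null value at 5.99. After quantile normalization, and after averaging of probe sets, 4 members in place of 5 were more than 2-fold lower in *ErbB2* *Ets2* null fibroblasts. More than 4-fold lower were 0.022% of all genes in normal and 0.324% in *ErbB2* *Ets2* null fibroblasts, and 0.011% with *Ets2* and 0.22% without it in the oncogene comparisons.

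**Figure D2:**
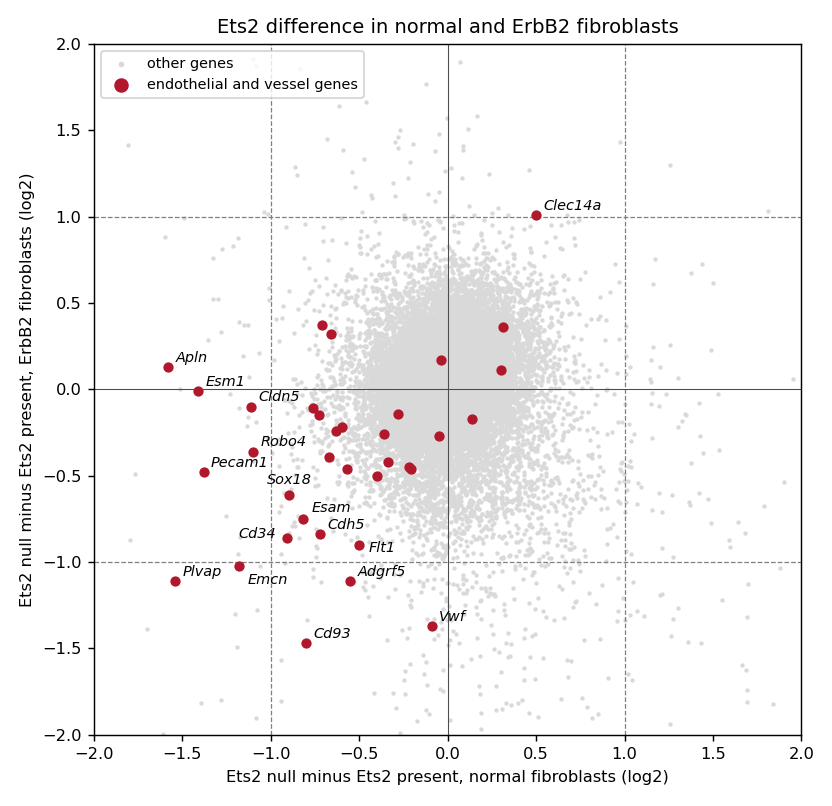
Difference of Ets2 null minus Ets2 present in normal fibroblasts (horizontal axis, log2) against the same in ErbB2 fibroblasts (vertical axis, log2), for the 35 endothelial and vessel genes in red and all other singly named genes in gray, with dashed lines at 2-fold; genes past 2 on either axis are outside the plot. The lower left quadrant holds 27 of the 35 members, and Clec14a is at the upper right.

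Of the 7 receptors for growth factors and guidance cues, 6 were below 0 in each *Ets2* comparison, with medians of -0.36 in normal and -0.26 in *ErbB2* fibroblasts. *Kdr*, which encodes the main signalling receptor for VEGF, had log2 values of 6.96 and 7.46 in *ErbB2* *Ets2* null fibroblasts and *ErbB2* fibroblasts with *Ets2*, and of 7.06 and 7.46 in normal *Ets2* null fibroblasts and normal fibroblasts with *Ets2*. The values with *Ets2* were the same to 2 decimals with and without the oncogene, and both null values were lower, by 1.41-fold in *ErbB2* and 1.32-fold in normal fibroblasts. *Flt1*, whose product binds VEGF and in its soluble form sequesters it, had 6.87 in *ErbB2* *Ets2* null fibroblasts, against 7.76 in *ErbB2* fibroblasts with *Ets2*, and 7.09 without *Ets2*, against 7.59 with it, in normal fibroblasts. It was 1.86-fold lower in *ErbB2* and 1.41-fold lower in normal *Ets2* null fibroblasts. All 4 of its probe sets lay below 0 in both comparisons, and the other 3 differed by -1.44 to -0.97 in *ErbB2* fibroblasts.

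*Robo4*, an endothelial receptor that steadies the vessel wall, was at log2 6 or more in normal fibroblasts with *Ets2* alone. Its values were 5.38 and 5.73 in *ErbB2* *Ets2* null fibroblasts and *ErbB2* fibroblasts with *Ets2*, and 5.25 and 6.35 in normal *Ets2* null fibroblasts and normal fibroblasts with *Ets2*. *Eng*, encoding endoglin, a co-receptor for transforming growth factor beta and related ligands, had 8.93, 9.07, 9.27 and 9.55 in the same order of arrays. The 4 values spread by less than 2-fold, both *ErbB2* arrays lay below both normal arrays, and the other *Eng* probe set was above 0 in both *Ets2* comparisons, by 0.24 in normal and 0.01 in *ErbB2* fibroblasts. *Flt4*, the receptor for VEGF-C, *Tek*, the receptor for angiopoietins, and *Tie1*, its relative, lay between 4.24 and 6.01 over the 4 arrays, around or below the background level, and their *Ets2* differences ran from -0.36 to 0.17.

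The junction and surface proteins are the group with the most genes. More than 2-fold lower were 4 of 11 in normal (0.357% of all genes) and 3 of 11 in *ErbB2* *Ets2* null fibroblasts (1.74%). More than 2-fold higher was 1 in *ErbB2* *Ets2* null fibroblasts (0.341% of all genes). Of the 11, 10 were below 0 in normal and 9 in *ErbB2* fibroblasts, with medians of -0.82 and -0.75. *Plvap*, which forms the diaphragms of small endothelial openings, had a log2 value of 6.67 in *ErbB2* *Ets2* null fibroblasts, against 7.78 in *ErbB2* fibroblasts with *Ets2*. In normal fibroblasts it had 6.86 without *Ets2*, against 8.40 with *Ets2*. All 4 values were above background, and *Plvap* was 2.16-fold lower in *ErbB2* and 2.91-fold lower in normal *Ets2* null fibroblasts. *Emcn*, encoding the surface sialomucin endomucin, had 5.99 in *ErbB2* *Ets2* null fibroblasts, against 7.01 in *ErbB2* fibroblasts with *Ets2*, and in the normal pair 6.67 without *Ets2*, against 7.85 with it. The normal difference was 2.26-fold, and the difference in *ErbB2* fibroblasts was -1.02 on the log2 scale with the null value at the background level.

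*Cd93*, a surface lectin of endothelial and myeloid cells, had 6.85 in *ErbB2* *Ets2* null fibroblasts, against 8.31 in *ErbB2* fibroblasts with *Ets2*, and 7.37 without *Ets2*, against 8.17 with it, in normal fibroblasts. It was 2.76-fold lower in *ErbB2* and 1.74-fold lower in normal *Ets2* null fibroblasts, and all 5 of its probe sets were below 0 in both. *Pecam1*, which encodes CD31, was at 5.50 and 5.98 in *ErbB2* *Ets2* null fibroblasts and *ErbB2* fibroblasts with *Ets2*, and at 5.16 and 6.54 in normal *Ets2* null fibroblasts and normal fibroblasts with *Ets2*. Only the last of these values was above the background level, so the normal difference of -1.38 carries no fold. *Cdh5*, encoding VE-cadherin, the adhesion molecule of endothelial junctions, had 5.33, 6.17, 5.97 and 6.69 in the same order of arrays. Its second probe set, between 4.61 and 4.72, differed by -0.01 in *ErbB2* and 0.05 in normal fibroblasts.

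*Esam*, an adhesion molecule of endothelial junctions and platelets, had 6.46 in *ErbB2* *Ets2* null fibroblasts, against 7.20 in *ErbB2* fibroblasts with *Ets2*, and in the normal pair 6.52 without *Ets2*, against 7.34 with it. The null values were alike and 1.68-fold and 1.77-fold lower than their counterparts in *ErbB2* and in normal fibroblasts. *Cldn5*, the claudin of endothelial tight junctions, had 6.14, 6.24 and 6.45 in *ErbB2* *Ets2* null fibroblasts, *ErbB2* fibroblasts with *Ets2* and normal fibroblasts with *Ets2*, and 5.34 without *Ets2* in normal fibroblasts. It was thus low on a single array. *Icam2* and *Cd34*, which encode an adhesion ligand of leukocytes and a sialomucin of endothelial and progenitor cells, lay between 4.91 and 5.98 and were below 0 in both comparisons.

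*Clec14a* and *Ecscr* departed from the other surface genes. *Clec14a*, encoding an endothelial C-type lectin, had 7.16 in *ErbB2* *Ets2* null fibroblasts, against 6.15 in *ErbB2* fibroblasts with *Ets2*, and 6.28 without *Ets2*, against 5.78 with it, in normal fibroblasts. It was the only member highest in *ErbB2* *Ets2* null fibroblasts (2.86% of the members, against 31.8% of all genes). The difference of 2.02-fold in *ErbB2* fibroblasts lies just past 2-fold and fell short of it after median centring, after a loess correction and when probe sets were averaged, and the second *Clec14a* probe set, between 2.75 and 3.04, differed by 0.24 in *ErbB2* and -0.18 in normal fibroblasts. *Ecscr*, encoding an endothelial surface protein involved in cell migration, had 7.15, 6.78, 7.11 and 7.82 in *ErbB2* *Ets2* null fibroblasts, *ErbB2* fibroblasts with *Ets2*, normal *Ets2* null fibroblasts and normal fibroblasts with *Ets2*. It was lower in normal *Ets2* null fibroblasts by 1.64-fold and higher in *ErbB2* *Ets2* null fibroblasts by 1.29-fold.

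The 4 G protein-coupled receptor genes and partners were all below 0 in both *Ets2* comparisons, with medians of -0.57 in normal and -0.34 in *ErbB2* fibroblasts. *Adgrf5*, an adhesion-type receptor of the endothelium, had 5.60 in *ErbB2* *Ets2* null fibroblasts, against 6.71 in *ErbB2* fibroblasts with *Ets2*, and in the normal pair 6.53 without *Ets2*, against 7.08 with it. The *ErbB2* *Ets2* null array alone was below the background level. *Ramp2*, a partner protein of the adrenomedullin receptor, had 6.69 and 6.91 in *ErbB2* *Ets2* null fibroblasts and *ErbB2* fibroblasts with *Ets2*, and 6.21 and 6.80 in normal *Ets2* null fibroblasts and normal fibroblasts with *Ets2*, and was 1.16-fold lower in *ErbB2* and 1.51-fold lower in normal *Ets2* null fibroblasts. *Aplnr*, the receptor for apelin, and *Adgrl4*, an adhesion-type receptor of vessels, lay between 5.04 and 5.77, under the background level on every array. The second *Adgrl4* probe set, also under that level, differed by -1.21 in *ErbB2* and -0.81 in normal fibroblasts.

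Of the 6 secreted proteins and enzymes, 6 were below 0 in normal and 4 in *ErbB2* fibroblasts, with medians of -0.71 and -0.06. *Apln*, encoding the peptide apelin, which acts on vessel growth, had log2 values of 7.40 and 7.27 in *ErbB2* *Ets2* null fibroblasts and *ErbB2* fibroblasts with *Ets2*, and of 6.97 and 8.55 in normal *Ets2* null fibroblasts and normal fibroblasts with *Ets2*. The normal array with *Ets2* stood above the other 3, so that *Apln* was 3.0-fold lower in normal *Ets2* null fibroblasts and 1.10-fold higher in *ErbB2* *Ets2* null fibroblasts. *Esm1*, a proteoglycan made by activated endothelium, had 3.48, 3.49 and 3.40 on the first 3 of these arrays and 4.81 on the last, all below the background level. *Egfl7*, a matrix-bound factor of endothelial cells, had 7.03 in *ErbB2* *Ets2* null fibroblasts, against 7.41 in *ErbB2* fibroblasts with *Ets2*, and 6.98 without *Ets2*, against 7.65 with it, in normal fibroblasts. All 4 of its probe sets were below 0 in both comparisons, by -1.04 to -0.18.

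*Mmrn2*, an endothelial matrix glycoprotein, had 6.41, 6.52, 6.10 and 6.86 in *ErbB2* *Ets2* null fibroblasts, *ErbB2* fibroblasts with *Ets2*, normal *Ets2* null fibroblasts and normal fibroblasts with *Ets2*. Its 4 probe sets were below 0 in both comparisons, and 1 of the dimmer ones differed by -1.55 in normal and -0.77 in *ErbB2* fibroblasts. *Nos3*, the endothelial nitric oxide synthase, was lower in normal *Ets2* null fibroblasts, at 5.85 against 6.50, and higher in *ErbB2* *Ets2* null fibroblasts, at 6.28 against 5.96. *Vwf*, von Willebrand factor of endothelial storage granules and platelets, lay below the background level everywhere, at 3.47 in *ErbB2* *Ets2* null fibroblasts and between 4.64 and 4.84 on the other arrays, so that its difference of -1.37 in *ErbB2* fibroblasts rests on dim values.

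All 5 transcription factor genes were below 0 in both *Ets2* comparisons, with medians of -0.34 in normal and -0.45 in *ErbB2* fibroblasts. None reached 2-fold by its brightest probe set. *Sox18*, which acts in vessel and lymphatic development, had 5.63 in *ErbB2* *Ets2* null fibroblasts, against 6.25 in *ErbB2* fibroblasts with *Ets2*, and in the normal pair 5.67 without *Ets2*, against 6.57 with it. *Erg*, an ETS factor that maintains endothelial identity, had 5.56 against 6.02 in the *ErbB2* pair and 5.74 against 6.31 in the normal pair, *Ets2* null against *Ets2* present. Both genes were above the background level on the arrays with *Ets2* and below it on the null arrays. *Sox17*, a factor of arterial endothelium, *Sox7*, its relative, and *Tal1*, a factor of blood and endothelial precursors, lay between 3.52 and 6.02. The second *Sox17* probe set, below background on every array, differed by -1.15 in *ErbB2* and -0.46 in normal fibroblasts.

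The lymphatic genes *Prox1*, the factor that sets lymphatic endothelial identity, and *Lyve1*, a hyaluronan receptor of lymphatic vessels, lay between 3.13 and 3.91 on every array. Both were above 0 in the *Ets2* comparisons, by 0.11 and 0.36 in *ErbB2* and by 0.30 and 0.31 in normal fibroblasts, at levels below background, and each had dimmer probe sets of opposite sign in normal fibroblasts.

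The ETS letters shown for the 4 promoters occurred with differences of either direction. Among the members with 1 window, they were in those of *Robo4*, *Emcn* and *Apln*, which were more than 2-fold lower in normal *Ets2* null fibroblasts, and of *Clec14a*, which was above 0 in both comparisons. They were not in those of *Cldn5* and *Esm1*, which were also more than 2-fold lower in normal *Ets2* null fibroblasts. The higher direction rests on *Clec14a* alone, whose second probe set differed by -0.18 in normal fibroblasts. *Plvap*, *Pecam1*, *Cd93* and *Vwf*, also past 2-fold in an *Ets2* comparison, had no window. A link between the letters and the differences was not tested.

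Different probe sets of a gene gave the same direction in most cases. The 35 members had 61 probe sets, and 16 members had more than 1. For 11 of these 16 all probe sets had the same sign in normal fibroblasts, the exceptions being *Cdh5*, *Clec14a*, *Eng*, *Lyve1* and *Prox1*. In *ErbB2* fibroblasts this held for 13, with *Eng*, *Flt4* and *Lyve1* as exceptions. Over all probe sets of the members, 55 of 61 were below 0 in normal and 50 in *ErbB2* fibroblasts. Probe sets of the same gene are not independent, and the share over all probe sets was not computed.

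The median differences of the oncogene comparisons were closer to 0. In fibroblasts with *Ets2*, 24 of 35 members were below 0 in *ErbB2* minus normal, against 53.5% of all genes, with a median of -0.24 against -0.019. More than 2-fold lower were 3 members, against 0.17% of all genes, and none was more than 2-fold higher, against 0.83%. These 3 were *Ecscr*, which was 2.06-fold lower in *ErbB2* fibroblasts, *Apln*, which was 2.43-fold lower, and *Esm1*, with a difference of -1.32 below background. All 3 were highest in normal fibroblasts with *Ets2*, the array on which 23 of 35 members had their highest value (65.7%, against 21.8% of all genes). This array is shared by the *Ets2* comparison in normal fibroblasts and the oncogene comparison with *Ets2*, so the values of these 2 comparisons are not independent.

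In *Ets2* null fibroblasts, 18 of 35 members were below 0 in *ErbB2* minus normal, against 45.1% of all genes, with a median of -0.04 against 0.025. More than 2-fold lower was 1 member, *Vwf*, against 1.51% of all genes, and none was more than 2-fold higher, against 0.544%. *Adgrf5* differed by -0.93 and *Clec14a* was 1.84-fold higher in *ErbB2* *Ets2* null fibroblasts. The share of members below 0 was thus close to that of all genes, and the *ErbB2* and normal *Ets2* null arrays had 14 members each at log2 6 or more.

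**Figure D3:**
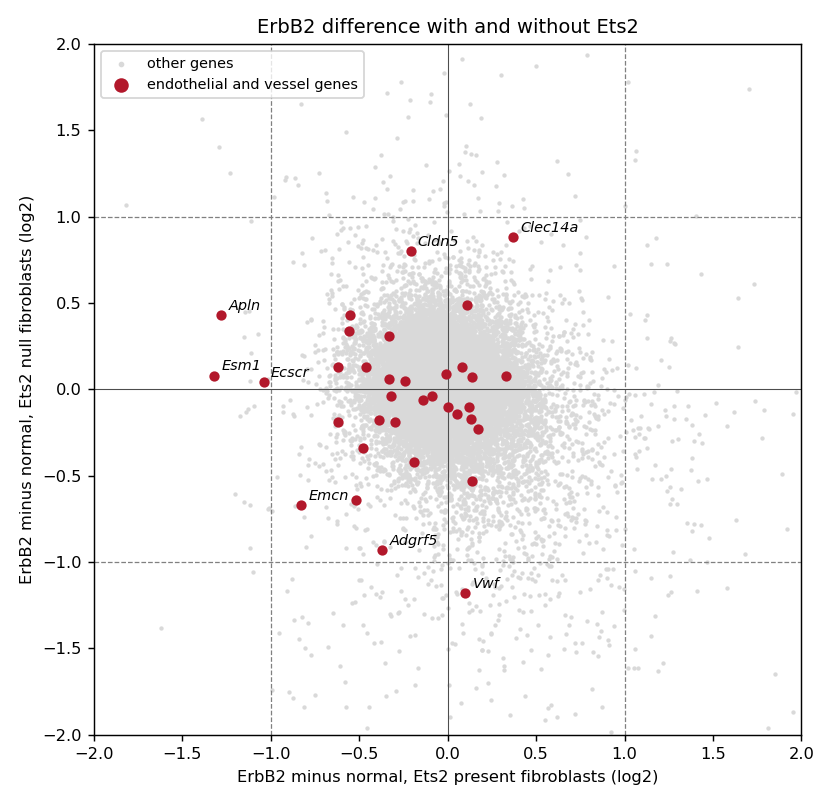
Difference of ErbB2 minus normal in fibroblasts with Ets2 (horizontal axis, log2) against the same in Ets2 null fibroblasts (vertical axis, log2), for the 35 endothelial and vessel genes in red and all other singly named genes in gray, with dashed lines at 2-fold; genes past 2 on either axis are outside the plot. Apln, Esm1 and Ecscr lie past 2-fold to the left, and Vwf past 2-fold at the bottom.

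The lists of further endothelial genes, VEGF and angiopoietin genes, Notch and ephrin genes and other endothelial transcription factors had medians nearer to 0. Pericyte and smooth muscle markers did so in normal fibroblasts (0.06), but not in *ErbB2* fibroblasts, where their median was -0.45, against -0.36 for the members. These differences between lists were not tested. Of 36 further endothelial genes, 34 were measured, and their median difference was 0.09 in normal and -0.12 in *ErbB2* *Ets2* null fibroblasts. None was more than 2-fold lower in normal fibroblasts (0.357% of all genes), and 4 were in *ErbB2* fibroblasts (1.74%). These were the sphingosine-1-phosphate receptor gene *S1pr1*, the water channel gene *Aqp1*, the prostaglandin transporter gene *Slco2a1* and the endothelin gene *Edn1*. *Aqp1* had 6.19 in *ErbB2* *Ets2* null fibroblasts, against 7.76 in *ErbB2* fibroblasts with *Ets2*, and 6.18 without *Ets2*, against 7.12 with it, in normal fibroblasts. *Edn1* had 6.77 against 8.15 in the *ErbB2* pair and 7.97 against 7.53 in the normal pair, *Ets2* null against *Ets2* present, so that it was low on the *ErbB2* *Ets2* null array alone. The list also holds genes with high values on all 4 arrays, such as *Rhoj*, *Tm4sf1* and *Slco2a1*, which lay between 8.92 and 12.38. By its median level it was not brighter than the members, but its summed signal was higher than theirs on every array. The summed signal of the list was 5790 in *ErbB2* *Ets2* null fibroblasts, against 9370 in *ErbB2* fibroblasts with *Ets2*. In the normal pair the sum was 12540 without *Ets2*, against 9020 with it. The median level of the list was 5.53 and 5.76 in *ErbB2* *Ets2* null fibroblasts and *ErbB2* fibroblasts with *Ets2*. It was 5.40 and 5.45 in normal *Ets2* null fibroblasts and normal fibroblasts with *Ets2*. The members had medians of 5.63, 6.02, 5.85 and 6.45 in the same order of arrays.

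The 10 genes of VEGF and angiopoietin ligands and neuropilins had medians of -0.16 in normal and -0.01 in *ErbB2* *Ets2* null fibroblasts. In this list *Vegfc*, the ligand of the Flt4 receptor, had 6.98 in *ErbB2* *Ets2* null fibroblasts, against 8.89 in *ErbB2* fibroblasts with *Ets2*, and in the normal pair 8.83 without *Ets2*, against 8.01 with it. No other gene of that list passed 2-fold in an *Ets2* comparison, and none of 13 Notch and ephrin genes of vessels did (medians 0.08 and 0.01). Of 18 other endothelial transcription factors, *Meox2*, a homeobox gene of vessels and muscle, was the only one past 2-fold in an *Ets2* comparison, at -1.18 in normal fibroblasts, and the medians were 0.10 in normal and -0.18 in *ErbB2* fibroblasts.

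Markers of other cell types were read on the same arrays, and their part in the endothelial values was not tested. Of 15 pericyte and smooth muscle markers, 1 was more than 2-fold lower (0.357% of all genes) and 1 higher (0.621%) in normal *Ets2* null fibroblasts. In *ErbB2* *Ets2* null fibroblasts 2 were more than 2-fold lower (1.74%). The medians were 0.06 in normal and -0.45 in *ErbB2* fibroblasts. *Rgs5*, a pericyte marker, was more than 2-fold lower in both, at 5.29 against 7.84 in the *ErbB2* pair and 5.16 against 6.60 in the normal pair, *Ets2* null against *Ets2* present. *Myh11*, the smooth muscle myosin gene, had 7.57 against 7.33 in the *ErbB2* pair and 9.36 against 8.20 in the normal pair, *Ets2* null against *Ets2* present, and was the gene higher in normal *Ets2* null fibroblasts. *Lmod1*, a smooth muscle actin-binding protein gene, differed by -1.08 in *ErbB2* and 0.48 in normal fibroblasts. *Pdgfrb*, also made by fibroblasts, lay between 11.19 and 11.67. Of 23 macrophage and myeloid markers, 14 were more than 2-fold lower in *ErbB2* *Ets2* null fibroblasts and 1 in normal *Ets2* null fibroblasts, with medians of -1.33 and -0.25. Their summed signal was 9090 in *ErbB2* *Ets2* null fibroblasts, against 23730 in *ErbB2* fibroblasts with *Ets2*, and 10220 without *Ets2*, against 12260 with it, in normal fibroblasts. Without the 12 members listed as also known from blood cells or fibroblasts, 23 members were left. Of these 23, 3 were more than 2-fold lower in *ErbB2* (1.74% of all genes) and 5 in normal *Ets2* null fibroblasts (0.357%).

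Of 15 epithelial markers, 9 were more than 2-fold lower in *ErbB2* *Ets2* null fibroblasts (1.74% of all genes), with a median of -1.43. In normal *Ets2* null fibroblasts 8 were more than 2-fold higher (0.621% of all genes), with a median of 1.35. The median of the endothelial genes was below 0 in both. The median of the 18 fibroblast markers was -0.01 in *ErbB2* and -0.38 in normal *Ets2* null fibroblasts. Of these markers, 1 was more than 2-fold lower in *ErbB2* (1.74% of all genes) and 2 in normal *Ets2* null fibroblasts (0.357%). The median of 7 platelet and blood progenitor markers was 0.08 in *ErbB2* and 0.02 in normal fibroblasts. Among them only *Pf4* passed 2-fold in an *Ets2* comparison. It had 6.27 against 8.94 in the *ErbB2* pair and 7.16 against 6.62 in the normal pair, *Ets2* null against *Ets2* present. Skeletal muscle markers (8 genes) had medians of -2.35 in *ErbB2* and -0.40 in normal *Ets2* null fibroblasts. Of these, 6 were more than 2-fold lower in *ErbB2* *Ets2* null fibroblasts (1.74% of all genes). In normal *Ets2* null fibroblasts 2 were more than 2-fold lower (0.357%) and 1 higher (0.621%). Adipocyte markers (6 genes) had medians of -0.11 in *ErbB2* and 0.11 in normal fibroblasts, and 1 was more than 2-fold higher in normal *Ets2* null fibroblasts (0.621%).

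**Figure D4:**
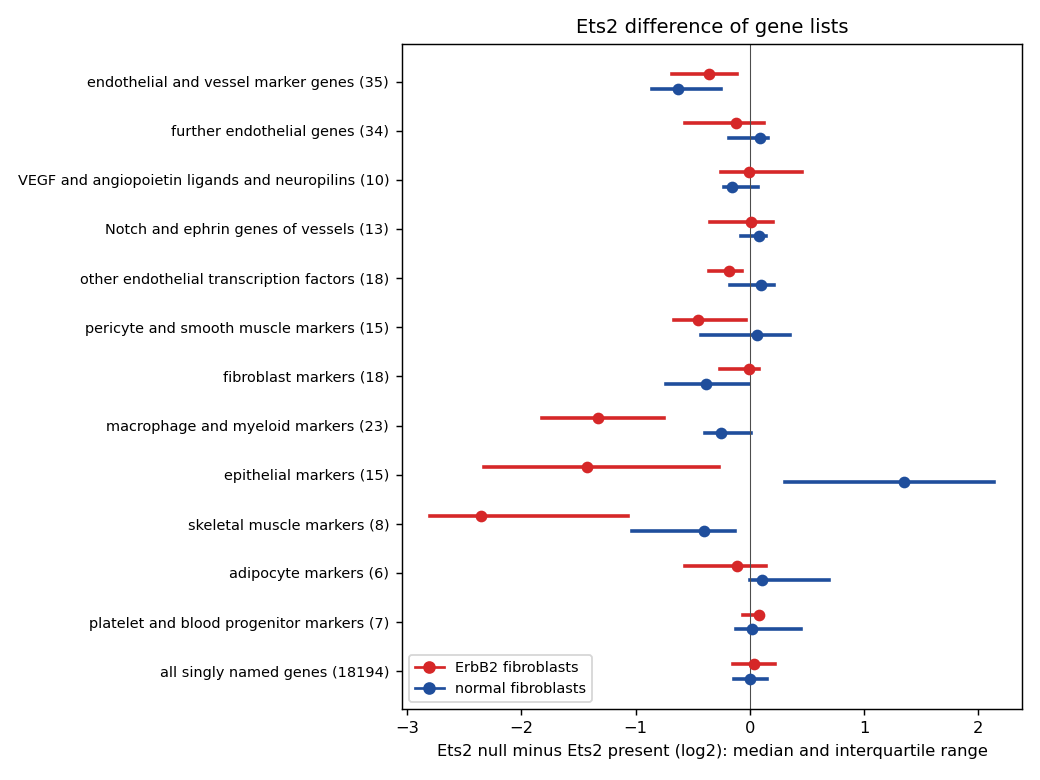
Difference of Ets2 null minus Ets2 present (horizontal axis, log2) in ErbB2 fibroblasts (red, upper of each pair) and normal fibroblasts (blue, lower), for the endothelial and vessel genes, the companion lists and all genes, with a dot for the median over the genes, a bar for the interquartile range and the number of measured genes in brackets. The endothelial and vessel genes have medians of -0.36 and -0.63, while the medians of all genes are at 0.039 and -0.003.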

How the data were processed

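Fibroblasts were separated from collagenase- and hyaluronidase-digested mammary tissue by gravity and taken for RNA at the second passage. Log2 values computed with RMA were deposited by the authors (version, software and build not given in the sources used here) for 45101 probe sets, 1 column per genotype and no column without a sample. Since RMA equalises the distributions of the arrays, a shift of most genes at once is lost. No depth exists for arrays, and their number limits the precision. The deposited platform annotation gave 1 symbol to 34958 probe sets, several to 932 and none to 9211, and those with several or none were left out. The differences are *Ets2* null minus *Ets2* present and *ErbB2* minus normal (4 comparisons, Python 3.11.15, pandas 2.3.3, numpy 2.4.6, statsmodels 0.14.6, matplotlib 3.10.9). A gene was counted at an absolute log2 difference over 1 (2-fold) in place of a test. The 2-fold count was run on simulated data with added 4-fold changes, which such a rule is bound to find, so this checks the code only. No member reached 4-fold, and the alternatives and the promoter search were not simulated.

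Every member was named. Genes of other lists were named only if they passed 2-fold in a comparison or define another cell type. Most that did so, among them the myeloid, epithelial, muscle and fibroblast markers, are given only within counts or medians of the *Ets2* comparisons. *Pdgfrb* was named as such a marker. The members and lists were chosen with earlier results of these data known. Alternatives were rules of 1.5-fold and 4-fold, quantile normalization, centring on array medians, a loess correction (span 0.4), a filter at log2 6 on the higher array, other choices of probe set, the members without those also known from blood cells or fibroblasts, and means. Promoter letters were searched in the whole window of 300 bases. The 250 bases before the start were used for the printed stretches, where the ETS letters were in 29.2% of all genes and 34.3% of array genes. The *PyMT* arrays were not analysed here.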

Additional observations from a re-analysis of the deposited data

Results flagged for a closer look

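*Ecscr* and *Apln* had *Ets2* differences of unlike sign in *ErbB2* and in normal fibroblasts, of which only that of *Apln* in normal fibroblasts passed 2-fold. The difference of *Ets2* null minus *Ets2* present was 0.37 in *ErbB2* and -0.71 in normal fibroblasts for *Ecscr*, a gap of 1.08 on the log2 scale, and 0.13 and -1.58 for *Apln*, a gap of 1.72. For both genes the normal array with *Ets2* was the highest of the 4. The epithelial markers had median differences of unlike sign, -1.43 in *ErbB2* and 1.35 in normal fibroblasts, a gap of -2.78. With 1 array per genotype these differences between normal and *ErbB2* fibroblasts were not tested.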

How the results depend on the processing

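No paired analysis was possible because each genotype had 1 array. For the same reason no array could be left out. Over 116 alternative values, 98 differed little from the reported ones (a count within 1.5 times, a median within 0.1), 18 moved and 0 turned round in direction by this rule. At 4-fold, 0 members were lower in any of the 4 comparisons and 0 were higher in *ErbB2* *Ets2* null fibroblasts. At 1.5-fold, 19 members were lower in normal (1.87% of all genes) and 10 in *ErbB2* *Ets2* null fibroblasts (5.64%). In *ErbB2* minus normal 6 were lower with *Ets2* (1.31%), and 4 lower (3.87%) and 2 higher (2.09%) in *Ets2* null fibroblasts. The 1 member higher in *ErbB2* *Ets2* null fibroblasts became 0 after median centring, a loess correction or averaging of probe sets. With members that reached log2 6 on the higher array only, the median in *ErbB2* *Ets2* null fibroblasts was -0.46, and 0 members were lower in *ErbB2* minus normal *Ets2* null fibroblasts. This filter keeps members that passed through the array where they were high, so it is partly decided by the difference and its values support nothing. Without members that blood cells or fibroblasts also express, 3 of 23 were lower in *ErbB2* *Ets2* null fibroblasts (1.74% of all genes). In *ErbB2* minus normal *Ets2* null fibroblasts 0 were lower (1.51%). Averaging of probe sets gave a median of -0.51 in normal *Ets2* null fibroblasts. The cause of these shifts was not tested, beyond the fewer genes that a filter leaves.

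Over the alternatives other than the filter at log2 6 the median ran from -0.66 to -0.51 in normal and from -0.42 to -0.26 in *ErbB2* *Ets2* null fibroblasts. For *ErbB2* minus normal it ran from -0.32 to -0.18 with *Ets2* and from -0.06 to 0.05 in *Ets2* null fibroblasts, where its sign is not settled. Dim signal limits these values, since 12 members were below log2 6 on every array, and a difference between dim values understates or misses a change. Without replicate arrays, no difference could be set against the spread between cultures.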
